A study of Capra hircus with 9 samples.

Results

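Carbonic anhydrases are zinc enzymes that convert carbon dioxide and water into bicarbonate and a proton. The members described here are CA2, CA3, CA4, CA6, CA8, CA9, CA12, CA13 and CA14, which were found by gene symbol or product name and make up 9 of the 21228 genes in the expression table. Their 22 transcripts were summed to genes. The libraries came from submandibular glands of healthy female Lubo goats (Capra hircus) kept under the same conditions, which all had food withheld and were given xylazine hydrochloride as an anaesthetic before the glands were taken: 3 goats aged 1 month (1-month-old, group A), 3 aged 12 months (12-month-old, group B) and 3 aged 24 months (24-month-old, group C). Each library was made from ribosomal-RNA-depleted total RNA of a whole gland piece, so every cell type in the piece contributed. The comparisons between ages address how the gland changes from the kid to the older goat.

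Saliva of ruminants is rich in bicarbonate, which buffers the acids made in the rumen. Inside secretory and duct cells, carbonic anhydrases supply bicarbonate and protons to transporters at the cell surface. CA6 is the form that is secreted into saliva, CA4, CA9, CA12 and CA14 are held on the cell membrane with their active sites outside, and CA2, CA3 and CA13 are cytosolic. CA8 belongs to the family by sequence but lacks catalytic activity. Levels below are CPM, expected counts scaled to a common library size with TMM factors. They are compared across libraries within a gene and never between genes, since transcript lengths were not used here.

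Rounded totals of expected counts ran from 11500000 to 17600000 for the kids, from 18200000 to 21100000 at 12 months and from 22000000 to 24900000 at 24 months, and 3 counts corresponded to 0.149 to 0.196 CPM. The second 1-month-old library stood apart and bears on every comparison with group A. Its summed level of 12 secretory acinar cell genes was 122 CPM, against 39140 and 25585 CPM in replicates 1 and 3 of that age and 117012 to 216378 CPM in groups B and C. The water channel gene AQP5, a marker of secretory acinar cells, was at 0.508 CPM there and at 224 and 132 CPM in the other two kids. A list of 12 thymocyte genes summed to 3540, 12376 and 1777 CPM in 1-month-old replicates 1, 2 and 3, and to 10.7 to 30.2 CPM in groups B and C. A list of 5 thymic epithelium genes ran in parallel, at 179, 725 and 71.2 CPM in group A and 0.939 to 2.61 CPM in the older groups. All 1-month-old libraries thus carried transcripts of the thymus lists, and replicate 2 carried few gland transcripts. Fewer cells of a type and less RNA per cell cannot be told apart in such libraries. Values without 1-month-old replicate 2 are therefore given beside the members and the pathway genes.

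Of the 9 members, 8 passed the filter on low counts and were tested. CA3 and CA4 were higher in group B than in group A and passed the test, and no member fell. The same genes, CA3 and CA4, passed in group C against group A, and no member passed between groups B and C. Across all genes, 18.2% passed between groups A and B and 6.51% passed as higher at 12 months. Between groups A and C, 17.5% passed and 7.1% passed as higher at 24 months. Between groups B and C, 0% passed with edgeR's quasi-likelihood test, 11% had an unadjusted p under 0.05, and DESeq2 and edgeR's exact test each called 21 genes, none of them a member. No member had an unadjusted p under 0.05 between groups B and C. Without 1-month-old replicate 2, CA3, CA4, CA6 and CA12 all passed as higher at both older ages, when 21.5% of all genes passed as higher at 12 months and 14.1% at 24 months. The median log2 fold change of the 8 members was 1.52 from 1 to 12 months, 1.31 from 1 to 24 months and -0.15 from 12 to 24 months. The medians of all genes tested were -0.02, -0.01 and 0.04. With library sizes set from 12 epithelial genes, a scale described below, the median of the members was -0.13 from 1 to 12 months. It was -0.66 from 1 to 24 months. On that scale the medians of all genes tested were -1.67 and -1.95. The comparisons with groups B and C share the 1-month-old libraries, so they are not independent of each other. CA3, CA4, CA6 and CA12 were higher in every older goat than in every kid, which held for 26.7% of all genes from 1 to 12 months and 20.3% from 1 to 24 months. A gene is said to have risen or fallen here only where the adjusted p of edgeR's quasi-likelihood test was under 0.05. The log2 fold changes of CA3 and CA4 also exceeded the study's further limit of 2, with which 11.5% of all genes passed from 1 to 12 months and 13.2% from 1 to 24 months. From 1 to 12 months, 0, 67 and 107 of all genes passed without 12-month-old replicate 1, 2 and 3, against 2660 with 6 libraries. Calls lost in those fits are thus not particular to the genes named below. From 1 to 24 months, 1552, 545 and 305 passed without 24-month-old replicate 1, 2 and 3, against 2574.

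**Figure D1:**
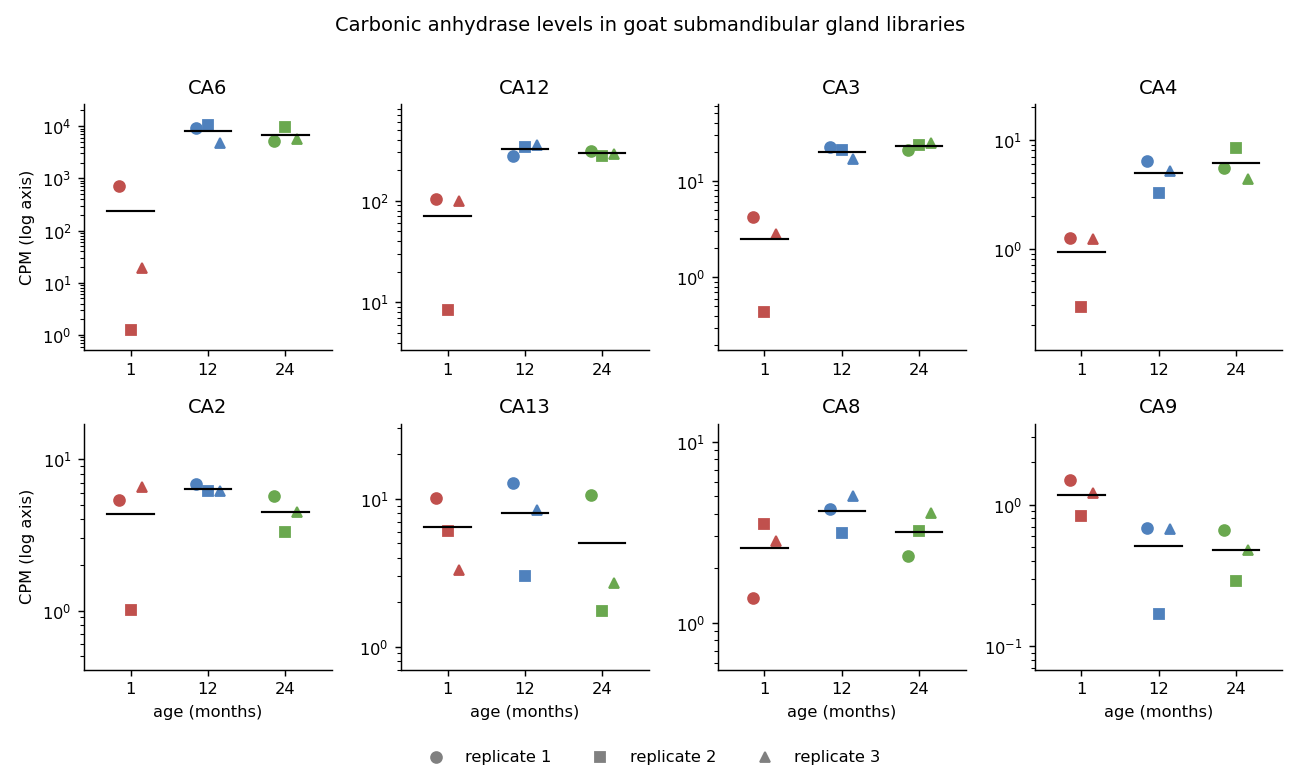
Level in CPM (log axis) of the 8 carbonic anhydrases tested, against age in months. Points are libraries, with the shape giving the replicate number, and black bars are means of 3. CA6, CA12, CA3 and CA4 lie lower in the 3 libraries at 1 month than in any older library, and their lowest point is 1-month-old replicate 2.

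CA6, the secreted salivary form, had the widest range among members. In 1-month-old replicates 1, 2 and 3 it stood at 700, 1.27 and 19.4 CPM. In 12-month-old replicates 1, 2 and 3 it stood at 9082, 10423 and 4752 CPM, and in the 24-month-old replicates at 5253, 9550 and 5695 CPM. The groups of kids and older goats did not overlap, and the kids themselves differed widely. Mean levels were 240 ± 398 CPM (SD, n = 3) at 1 month, 8086 ± 2964 CPM at 12 months and 6833 ± 2364 CPM at 24 months. The mean was 33.6-fold higher at 12 months than at 1 month and 28.4-fold higher at 24 months. The log2 fold change was 5.15 (SE 2.01) from 1 to 12 months and 4.97 (SE 1.85) from 1 to 24 months, and neither passed edgeR's quasi-likelihood test (adjusted p = 0.112 and 0.0971). Both passed with edgeR's exact test (adjusted p = 0.0247 and 0.0187) and with DESeq2 (adjusted p = 0.0205 and 0.0294). Without 1-month-old replicate 2 the log2 fold changes were 4.49 (SE 1.45, adjusted p = 0.0472) and 4.35 (SE 1.22, adjusted p = 0.0275), and both passed. The difference between 12 and 24 months was -0.19 (SE 0.368) on the log2 scale, smaller than the spread between goats of 1 age.

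The 2 kids with gland transcripts differed in CA6 far more than in other gland genes. CA6 was at 700 CPM in 1-month-old replicate 1 and at 19.4 CPM in replicate 3, from 10797 and 297 expected counts. In the same libraries AQP5 was at 224 and 132 CPM, the acinar mucin gene MUC19 at 23875 and 17512 CPM, and BHLHA15, which encodes a transcription factor of secretory acinar cells, at 104 and 88.1 CPM. The thymocyte list was at 3540 CPM in replicate 1 and 1777 CPM in replicate 3, and its part in the level of CA6 was not tested. Leaving out replicate 1 instead raised the CA6 log2 fold change to 9.61 from 1 to 12 months (adjusted p = 0.0237) and to 9.48 from 1 to 24 months (adjusted p = 0.0086).

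CA12, the membrane form of many secretory and duct epithelia, kept a narrow range in older goats. It was at 103, 8.37 and 98.6 CPM in 1-month-old replicates 1, 2 and 3. The 12-month-old replicates had 278, 341 and 356 CPM, and the 24-month-old replicates had 312, 278 and 289 CPM. Replicates 1 and 3 of group A were close to each other, and all kids lay below all older goats. The coefficient of variation over the 6 older goats was 10.8% for CA12 and 33.4% for CA6. The log2 fold change was 2.30 (SE 0.81) from 1 to 12 months and 2.20 (SE 0.78) from 1 to 24 months, and neither passed (adjusted p = 0.0884 and 0.0858). As for CA6, both passed with the exact test (adjusted p = 0.0261 and 0.0299) and with DESeq2 (adjusted p = 0.0176 and 0.02). Without 1-month-old replicate 2 they were 1.69 (SE 0.159, adjusted p = 0.00104) and 1.64 (SE 0.313, adjusted p = 0.0062). From 12 to 24 months the log2 fold change was -0.11 (adjusted p = 0.788).

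The 5 annotated CA12 transcripts did not share their gene's counts in the same way in all libraries. The transcript XM_005685674.3 held 76.5% and 79.8% of the counts of CA12 in replicates 1 and 3 of group A, and its share was 83.7% to 92.7% in the older goats. In 1-month-old replicate 2 this transcript had 0 counts, and XM_005685676.3 held 68.1% of the gene's 156 counts. XM_005685676.3 held at most 2.5% in any other library. These shares are estimates that divide reads among overlapping transcripts, and they were not tested.

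CA3, a cytosolic form best known from slow muscle and fat cells, rose from kids to older goats. It was at 4.24, 0.435 and 2.78 CPM in 1-month-old replicates 1, 2 and 3, at 22.2, 21 and 16.8 CPM in the 12-month-old replicates, and at 20.7, 23.6 and 24.8 CPM in the 24-month-old replicates. No kid reached the level of any older goat. The rise was 3.09 (SE 0.719, adjusted p = 0.0309) on the log2 scale from 1 to 12 months and 3.35 (SE 0.724, adjusted p = 0.019) from 1 to 24 months. Without 1-month-old replicate 2 it was 2.51 (adjusted p = 0.00144) and 2.81 (adjusted p = 0.00176). CA3 missed the threshold at 12 months when any 1 of the 12-month-old libraries was left out (adjusted p 0.0959 to 0.105), where at most 107 of all genes passed, and also without 1-month-old replicate 3 (adjusted p = 0.082). At 24 months it missed the threshold without 24-month-old replicate 2 (adjusted p = 0.0678) or replicate 3 (adjusted p = 0.0762).

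The muscle and fat lists varied among libraries in another order than CA3. A list of 11 fast skeletal muscle genes summed to 70.9, 128 and 20.8 CPM in the 1-month-old replicates, to 86.2 CPM in 12-month-old replicate 2 and to 1.8 to 4.18 CPM in the other older goats, while CA3 in 12-month-old replicate 2 was 21 CPM, between its group's other values. In the kids MYBPC2 alone was at 26, 111 and 17 CPM of these sums. In 12-month-old replicate 2 MYBPC2 was at 0.794 CPM and MYH2 at 34.5 CPM, against 0.326 CPM of MYH2 in 1-month-old replicate 2. The sums thus reflect different genes in different libraries. A list of 7 slow skeletal muscle genes summed to at most 15.8 CPM in any library. A list of 9 adipocyte genes was at 229, 10.3 and 451 CPM in 1-month-old replicates 1, 2 and 3, and at 67.6 to 176 CPM in the older goats. Both the adipocyte list and CA3 were lowest in 1-month-old replicate 2, while replicates 1 and 3 had more of the list and less CA3 than any older goat. The part of muscle and fat in the level of CA3 was not tested.

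CA4, anchored to the outer face of the membrane in capillary endothelium and some epithelia, also rose. Its level was 1.26, 0.29 and 1.23 CPM in the 1-month-old replicates, 6.43, 3.23 and 5.18 CPM in the 12-month-old replicates and 5.52, 8.49 and 4.34 CPM in the 24-month-old replicates. The kids lay below all older goats, and the older groups overlapped. The log2 fold change was 2.51 (SE 0.645, adjusted p = 0.0399) from 1 to 12 months and 2.89 (SE 0.702, adjusted p = 0.0273) from 1 to 24 months. Without 1-month-old replicate 2 it was 1.99 (adjusted p = 0.0138) and 2.42 (adjusted p = 0.0149). Leaving out any other library ended both calls, with adjusted p between 0.08 and 0.133 at 12 months and between 0.0553 and 0.114 at 24 months. A list of 9 capillary endothelium genes summed to 538, 402 and 690 CPM in group A and to 329 to 635 CPM in groups B and C. None of its genes passed in either comparison with group A. Without 1-month-old replicate 2 there was 1 that fell from 1 to 12 months and 1 that rose from 1 to 24 months. Across all genes 18.2% and 17.5% passed, and without that library 6531 of 14930 and 4272 of 15076. The part of this cell type in the level of CA4 was not tested.

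CA2, the widespread cytosolic enzyme that supplies secretory cells with bicarbonate, showed no difference that passed. It was at 5.39, 1.02 and 6.56 CPM in the 1-month-old replicates, 6.86, 6.13 and 6.13 CPM in the 12-month-old replicates and 5.7, 3.32 and 4.5 CPM in the 24-month-old replicates. Apart from 1-month-old replicate 2, all libraries lay between 3.32 and 6.86 CPM. The log2 fold change was 0.65 (SE 0.624, adjusted p = 0.466) from 1 to 12 months and 0.20 (SE 0.674, adjusted p = 0.861) from 1 to 24 months. It was 0.10 (adjusted p = 0.77) and -0.30 (adjusted p = 0.661) without 1-month-old replicate 2. The 12- and 24-month-old libraries did not overlap for CA2, as for 15.4% of all genes, and the log2 fold change between them was -0.46 (adjusted p = 0.486).

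CA2 and CA3 are neighbours in the goat reference assembly, in the order CA13, a CA1-like gene, CA3 and CA2. The ratio of their counts differed between the ages, and how many other pairs of genes do so was not counted. From 12 to 24 months neither gene passed edgeR's quasi-likelihood test (adjusted p = 0.578 for CA3 and 0.486 for CA2). The ratio of CA3 to CA2 counts was 0.787, 0.429 and 0.424 in 1-month-old replicates 1, 2 and 3. It was 3.24, 3.44 and 2.74 in the 12-month-old replicates and 3.63, 7.11 and 5.51 in the 24-month-old replicates, so no age overlapped another. A two-sided exact permutation test of each pair of ages gave p = 0.1, the smallest that 3 against 3 libraries allow, and the ratio was chosen after its values were seen. This ratio needs no library size, but its value in 1-month-old replicate 2 rests on 8.09 counts of CA3 and 18.9 of CA2. Among the kids it was highest in replicate 1, the library with the most acinar and duct transcripts, and the part of gland transcripts in it was not tested. The like ratio of CA4 to CA2 was 0.188 to 0.286 in kids, 0.528 to 0.938 at 12 months and 0.965 to 2.56 at 24 months. Its value in 1-month-old replicate 2 rests on 5.39 counts of CA4.

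CA13, the other cytosolic form of this gene cluster, varied among goats of every age. It was at 10.1, 6.09 and 3.3 CPM in the 1-month-old replicates, 12.9, 3.01 and 8.39 CPM in the 12-month-old replicates and 10.6, 1.75 and 2.7 CPM in the 24-month-old replicates. Each age thus had a goat above 10 CPM and a goat at or below 3.3 CPM. The log2 fold changes of 0.37, -0.29 and -0.65 between ages did not pass (adjusted p = 0.688, 0.811 and 0.614), nor did those of 0.28 and -0.32 without 1-month-old replicate 2 (adjusted p = 0.773 and 0.787). Without 24-month-old replicate 1, CA13 was lower at 24 than at 12 months by -1.81 on the log2 scale (adjusted p = 0.047), in a fit in which 4657 of all genes passed.

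CA8, which binds a calcium channel of the endoplasmic reticulum in neurons and has no enzyme activity, was at 1.38, 3.52 and 2.84 CPM in the 1-month-old replicates. It ranged from 3.12 to 5 CPM at 12 months and from 2.34 to 4.02 CPM at 24 months. The ages overlapped, and no comparison passed (adjusted p = 0.299, 0.644 and 0.654). The log2 fold changes from 1 month were 0.98 and 0.72 without 1-month-old replicate 2 (adjusted p = 0.132 and 0.405). Unlike CA2, CA3, CA4, CA6 and CA12, CA8 had its highest 1-month-old value in replicate 2. A list of 9 Schwann cell and neuron genes was at 251, 66 and 205 CPM in the 1-month-old replicates, lowest where CA8 was highest among the kids. The difference lay largely in SOX10, at 146, 0.943 and 108 CPM, while MBP was at 57.8, 58.4 and 59 CPM. The sum thus does not measure nerve content alike in these libraries, and the part of the list in the level of CA8 was not tested.

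CA9, a membrane form that low oxygen induces through HIF1A in many cells, lay in the opposite direction from CA12. Its level was 1.49, 0.834 and 1.2 CPM in the 1-month-old replicates, 0.681, 0.17 and 0.676 CPM in the 12-month-old replicates and 0.66, 0.291 and 0.477 CPM in the 24-month-old replicates. All kids lay above all older goats, as for 26.8% of genes from 1 to 12 months and 23.3% from 1 to 24 months. The log2 fold changes of -1.14 (SE 0.639) and -1.17 (SE 0.66) did not pass (adjusted p = 0.225 and 0.247), nor did those of -1.38 and -1.36 without 1-month-old replicate 2 (adjusted p = 0.152 and 0.206). The lowest library, 12-month-old replicate 2, was at about the level of 3 counts. CA14, a membrane form, had 1.77 expected counts in 1-month-old replicate 1 and 0 in the other 8 libraries, so it was not detectable at this depth.

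Library sizes set from 12 epithelial genes in place of TMM gave another scale, on which the median log2 fold change of all genes was -1.67 from 1 to 12 months and -1.95 from 1 to 24 months. On it CA6 had a log2 fold change of 3.82 (adjusted p = 0.0866) and 3.32 (adjusted p = 0.049), and CA3 had 1.54 (adjusted p = 0.0698) and 1.48 (adjusted p = 0.0766). CA4 had 0.91 (adjusted p = 0.24) and 0.98 (adjusted p = 0.27), and CA12 had 0.71 (adjusted p = 0.421) and 0.33 (adjusted p = 0.694). These 4 members stayed above 0 while CA2, CA8 and CA13 lay below 0 in both comparisons, and CA13 passed as lower at 24 months (-1.95, adjusted p = 0.0475). CA9 was lower by -2.74 (adjusted p = 0.00899) and -3.02 (adjusted p = 0.00744) and passed there. Over all genes, 9845 of 14621 passed on this scale from 1 to 12 months and 9570 of 14695 from 1 to 24 months. Of the genes that passed on it, 0.721% and 0.846% were higher at the older age, against 35.8% and 40.5% with TMM. The value of CA13 at 24 months equalled the median of all genes. The epithelial list itself summed to 673 to 980 CPM in kids and 2213 to 3285 CPM in older goats. Most of the 673 CPM of 1-month-old replicate 2 came from KRT8, CDH1 and KRT18, at 316, 224 and 70.8 CPM. EPCAM was at 7.14 CPM there, against 134 and 97.7 CPM in replicates 1 and 3. How far the list stands for gland epithelium in 1-month-old replicate 2, and thus how far this scale holds for it, was not tested.

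**Figure D2:**
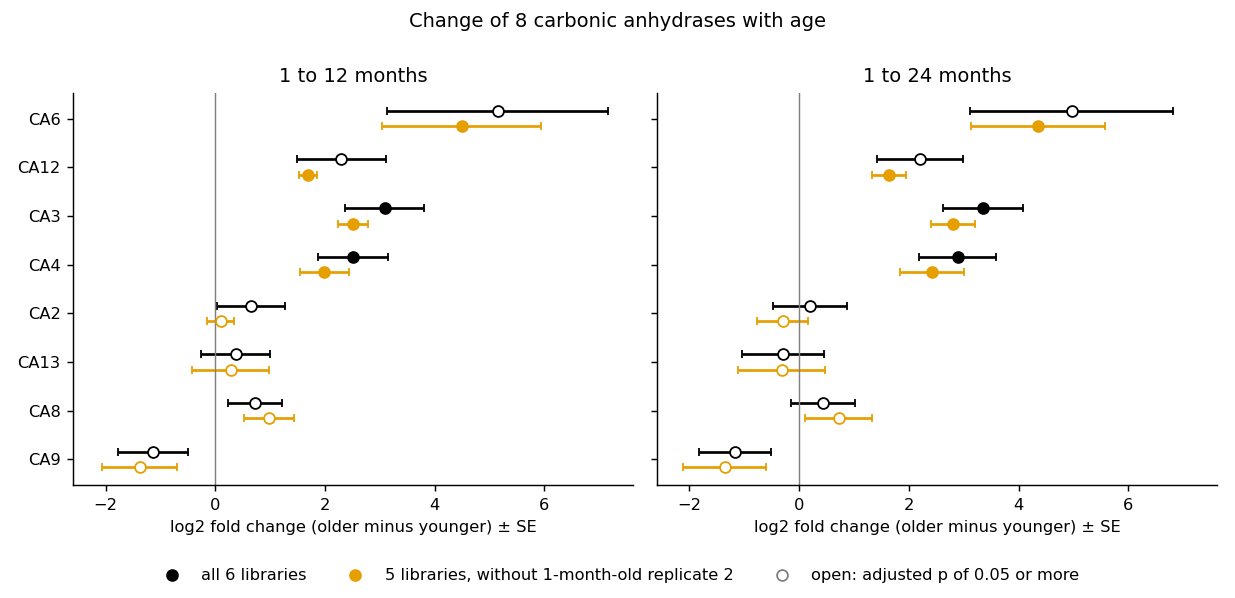
Log2 fold change from 1 to 12 months (left) and from 1 to 24 months (right) of 8 carbonic anhydrases, with bars of 1 SE. Black points use 6 libraries and orange points leave out 1-month-old replicate 2, and open points have an adjusted p of 0.05 or more. CA6 and CA12 change from open to filled, CA3 and CA4 are filled in both fits, and the other members are open in both.

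The position of each member beside the marker lists was compared next, since gland transcripts differed among the kids. Both CA6 and CA12 were lowest in 1-month-old replicate 2, at 1.27 and 8.37 CPM, where the acinar list was lowest and the thymocyte list highest. The part of these lists in the age differences was not tested.

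**Figure D3:**
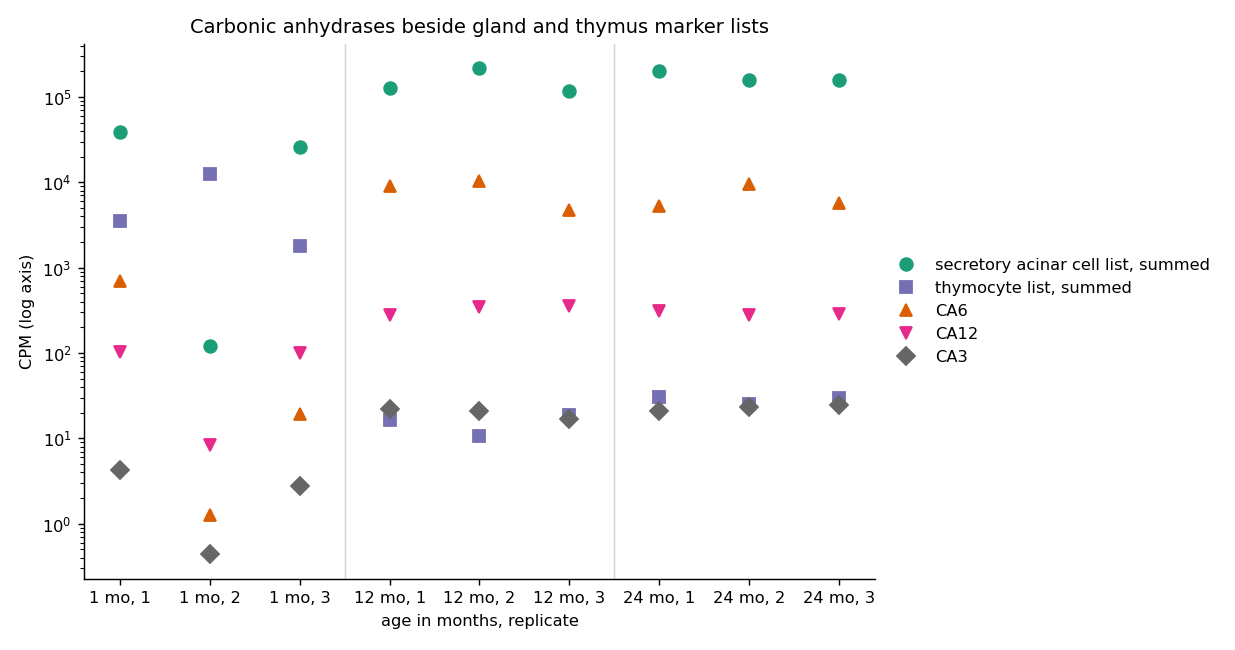
Level in CPM (log axis) of CA6, CA12 and CA3 and of the summed secretory acinar cell and thymocyte lists in each of the 9 libraries, named by age in months and replicate. The acinar list falls to 122 CPM and the thymocyte list reaches 12376 CPM in 1-month-old replicate 2, where CA6, CA12 and CA3 are lowest.

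Counts of CA6, CA12, CA3, CA4 and CA2 were then divided by those of AQP5 in the same library, a comparison chosen after the data were seen. 1-month-old replicate 2 was left out, since AQP5 had too few counts there. The ratio of CA6 to AQP5 was 3.12 and 0.147 in the other two kids (replicates 1 and 3), against 5.31 to 21.6 in the 6 older goats. CA6 was thus lower in kids beside AQP5 as well. The ratio of CA12 to AQP5 was 0.461 and 0.747 in the same kids and 0.269 to 0.708 in older goats, and the ages overlapped. The ratio of CA3 to AQP5 was 0.0189 and 0.021 in kids and 0.0231 to 0.0437 in older goats, a narrower gap than its CPM showed. The ratio of CA4 to AQP5 was 0.00563 and 0.00933 in kids and 0.00405 to 0.0122 in older goats, and the ages overlapped. The ratio of CA2 to AQP5 went the other way, at 0.0241 and 0.0497 in kids and 0.00419 to 0.0127 in older goats. With BHLHA15 as the divisor, CA12 was at 0.992 and 1.12 in kids and 0.612 to 1.55 in older goats. CA6 was then at 6.72 and 0.22 in kids and 12.1 to 47.3 in older goats. For CA3 the values were 0.041 and 0.032 in kids and 0.053 to 0.096 in older goats. With TFCP2L1 of the salivary duct list as the divisor, CA3 was at 0.0134 and 0.0129 in the same kids and 0.0233 to 0.0397 in older goats. CA12 was then at 0.325 and 0.457 against 0.284 to 0.499, and CA6 at 2.2 and 0.0898 against 6.6 to 16.2. AQP5, BHLHA15 and TFCP2L1 may change with age themselves, so these ratios give values relative to those genes and were not tested.

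**Figure D4:**
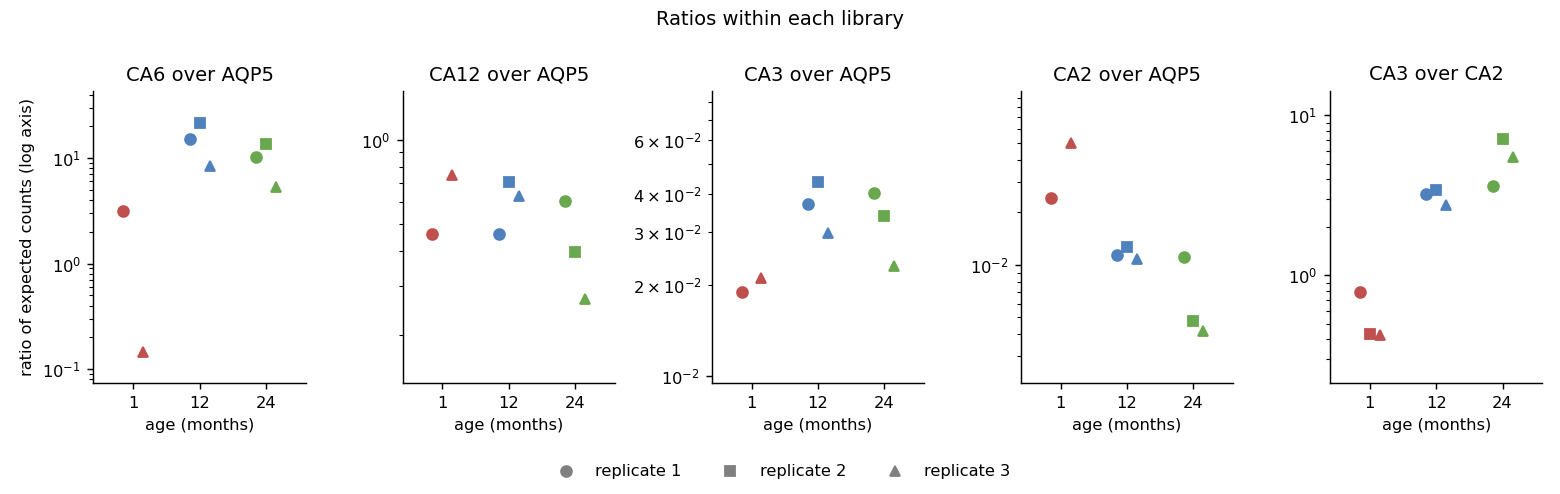
Ratio of expected counts within each library (log axis) against age in months, for CA6, CA12, CA3 and CA2 over AQP5 (8 libraries, without 1-month-old replicate 2) and for CA3 over CA2 (9 libraries). Point shapes give the replicate number. In 1-month-old replicate 2, CA3 over CA2 rests on 8.09 counts of CA3. CA6 over AQP5 is lower in kids than in older goats, CA12 over AQP5 overlaps between ages, CA2 over AQP5 is higher in kids, and CA3 over CA2 is below 1 in kids and above 2 in older goats.

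The genes whose profile over the 9 libraries was most like that of a member were named by Pearson's r of log2(CPM + 1) among 13993 genes with a mean of at least 1 CPM. For CA6 these were ALDH7A1 (r = 0.99), PTPRK (r = 0.98) and SORT1 (r = 0.98). For CA12 they were TMEM246 (r = 0.997), GREB1L (r = 0.997) and RBM47 (r = 0.996), and for CA3 they were TTC17 (r = 0.998), CPZ (r = 0.995) and DOCK1 (r = 0.995). These values describe libraries that share the low gland transcripts of 1-month-old replicate 2. Over the 6 older libraries alone, r was 0.81 for CA12 with TMEM246, 0.57 with GREB1L and 0.13 with RBM47. In the same libraries r was 0.71 for CA6 with ALDH7A1, 0.84 with PTPRK and 0.27 with SORT1. For CA3 it was 0.92 with TTC17, 0.83 with CPZ and 0.53 with DOCK1. CA6 and CA12 themselves had r = 0.93 over the 9 libraries and -0.35 over the 6 older libraries.

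Other carbonic anhydrase genes were found for 5 of 7 listed symbols. CA5B, a mitochondrial form, was at 21.3, 12.7 and 18.7 CPM in the 1-month-old replicates, 44.2, 34.1 and 38.7 CPM in the 12-month-old replicates and 44.6, 33.6 and 25.1 CPM in the 24-month-old replicates. It rose by 1.21 (SE 0.28, adjusted p = 0.0303) on the log2 scale from 1 to 12 months (with library sizes from the epithelial genes it was -0.41), and the log2 fold change of 1.09 from 1 to 24 months did not pass (adjusted p = 0.0893). The values were 0.97 (adjusted p = 0.00619) and 0.89 (adjusted p = 0.0958) without 1-month-old replicate 2. The call at 12 months was lost when any other library was left out (adjusted p 0.0538 to 0.124) and under a replicate block (adjusted p = 0.0909). A second locus annotated as CA5B was also higher from 1 to 12 months, by 2.26 (adjusted p = 0.0199), a call that was lost without 1-month-old replicate 3 or any 12-month-old library (adjusted p 0.062 to 0.091), and reads of the 2 copies may have been divided uncertainly. CA11, a relative without enzyme activity, was at 1.88 to 8.31 CPM in kids and 2.1 to 5.87 CPM in older goats. It did not pass between any ages with TMM. With library sizes from the epithelial genes it passed as lower at 12 months (-1.84, adjusted p = 0.0254). It also passed as lower there at 24 months (-2.21, adjusted p = 0.0164). On that scale the medians of all genes were -1.67 and -1.95, and 9845 of 14621 and 9570 of 14695 genes passed. CA10 reached 2.48 CPM in 12-month-old replicate 3 and was removed by the filter on low counts in both comparisons with group A. It passed from 1 to 12 months in 1 fit of all 9 libraries (3.03, adjusted p = 0.0479) and with DESeq2 (3.07, adjusted p = 0.0163), and not without 1-month-old replicate 2 (2.79, adjusted p = 0.0619). CA7 was at most 0.407 CPM and CA5A at most 0.06 CPM. The 5 loci annotated as CA1 or CA1-like, the red blood cell form, reached at most 0.254 CPM in any library.

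Among genes that work with the enzyme, the bicarbonate transporters were led by SLC4A4, the sodium bicarbonate cotransporter of the basolateral membrane. It was at 42.9, 19.7 and 42.1 CPM in the 1-month-old replicates, 1038, 728 and 882 CPM in the 12-month-old replicates and 887, 662 and 392 CPM in the 24-month-old replicates. No kid came near the older goats. SLC4A4 rose by 4.73 (SE 0.437, adjusted p = 0.00589) on the log2 scale from 1 to 12 months and by 4.33 (SE 0.557, adjusted p = 0.00403) from 1 to 24 months. It rose by 4.38 (adjusted p = 0.000205) and 4.04 (adjusted p = 0.000627) without 1-month-old replicate 2. Without 12-month-old replicate 1 the call from 1 to 12 months was just lost (adjusted p = 0.051), in a fit in which 0 of all genes passed. Of 18 listed bicarbonate transporters, 11 were tested in both comparisons with group A. From 1 to 12 months SLC4A4 rose and SLC4A10 fell, the latter from 1.02 ± 0.311 CPM (SD, n = 3) to 0.0292 ± 0.0253 CPM (adjusted p = 0.0162), below the level of 3 counts. This call was lost when any 1 of the 12-month-old libraries was left out (adjusted p 0.0751 to 0.0841). From 1 to 24 months SLC4A4 rose, and the other 10 did not pass. Across all genes 18.2% passed from 1 to 12 months and 17.5% from 1 to 24 months. The median log2 fold change of the 11 was 0.39 and 0.73. More of the 11 passed without 1-month-old replicate 2. From 1 to 12 months 4 rose (SLC4A4, SLC26A9, CFTR and SLC4A2) and 2 fell (SLC4A10 and SLC4A7). From 1 to 24 months 3 rose (SLC4A4, SLC26A9 and CFTR). Over all genes, 6531 of 14930 passed in that fit at 12 months and 4272 of 15076 at 24 months. SLC26A9, a chloride transporter of epithelia named after its values were seen, rose there by 2.29 (adjusted p = 0.00152) and 2.94 (adjusted p = 0.00577).

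The apical chloride and bicarbonate channel CFTR was at 14, 0.217 and 11 CPM in the 1-month-old replicates and at 23.6 to 34.9 CPM in older goats. Its log2 fold change of 2.05 from 1 to 12 months did not pass with 6 libraries (adjusted p = 0.195) and was 1.39 without 1-month-old replicate 2 (adjusted p = 0.0021). At 24 months it was 1.71 (adjusted p = 0.26) and 1.10 (adjusted p = 0.0381) in the same fits. The apical exchanger SLC26A6 was at 9.14, 17.9 and 10 CPM in the 1-month-old replicates and at 7.26 to 19.4 CPM in older goats. Its log2 fold changes of 0.39 and 0.36 did not pass (adjusted p = 0.493 and 0.66), nor did those of 0.71 and 0.72 without 1-month-old replicate 2 (adjusted p = 0.0702 and 0.274).

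The proton exporters moved in both directions. Of 14 listed genes, 9 were tested from 1 to 12 months, of which 3 fell, and 10 from 1 to 24 months, of which 2 rose and 2 fell. With 1-month-old replicate 2 left out, 11 were tested in each, of which 4 rose (ATP6V0A4, ATP6V1B1, SLC16A7 and SLC9A2) and 4 fell (SLC16A1, SLC16A3, HVCN1 and ATP12A) from 1 to 12 months. At 24 months 4 rose in that fit (ATP6V0A4, ATP6V1B1, SLC9A2 and SLC9A4) and 2 fell (SLC16A1 and ATP12A). Across all genes 18.2% and 17.5% passed with 6 libraries, and 6531 of 14930 and 4272 of 15076 in that fit. SLC16A1, which carries lactate with a proton, was at 30.7 to 35.7 CPM in kids and 2.44 to 5 CPM in older goats. It fell by 2.70 (SE 0.256, adjusted p = 0.00589) on the log2 scale from 1 to 12 months and by 3.25 (SE 0.405, adjusted p = 0.00391) from 1 to 24 months. The first call was just lost without 12-month-old replicate 1 or 2 (adjusted p = 0.051 and 0.0515), where 0 and 67 of all genes passed. Without 1-month-old replicate 2 the log2 fold changes of SLC16A1 were -2.77 (adjusted p = 0.000274) and -3.27 (adjusted p = 0.000599). SLC16A3, a related lactate carrier, fell by 2.91 (adjusted p = 0.0386) and 2.14 (adjusted p = 0.0478). Its log2 fold changes without 1-month-old replicate 2 were -2.33 (adjusted p = 0.0286) and -1.52, and the second did not pass (adjusted p = 0.0631). Only without 1-month-old replicate 1 or 2 did its call at 12 months hold (otherwise adjusted p 0.0702 to 0.135), and only without replicate 1 of that age its call at 24 months (otherwise adjusted p 0.0631 to 0.156). HVCN1, the voltage-gated proton channel known from white blood cells, fell by 2.53 from 1 to 12 months (adjusted p = 0.0494) and had a log2 fold change of -2.71 without 1-month-old replicate 2 (adjusted p = 0.0292). That call was lost without 1-month-old replicate 3 or any 12-month-old library (adjusted p 0.111 to 0.172). ATP6V0A4, a subunit of the proton pump in intercalated-type cells, was at 4.12 to 7.98 CPM in kids and 10.7 to 27.7 CPM in older goats and rose by 2.02 from 1 to 24 months (adjusted p = 0.0194), with a log2 fold change of 1.36 from 1 to 12 months that did not pass (adjusted p = 0.0557) and was -0.29 with library sizes from the epithelial genes. ATP6V0A4 passed in both without 1-month-old replicate 2, at 1.60 (adjusted p = 0.00979) and 2.30 (adjusted p = 0.00429), and without 1-month-old replicate 1 or 3 or 24-month-old replicate 2 or 3 its call at 24 months was lost (adjusted p 0.0576 to 0.0851). The second gene that rose was SLC9A4, a sodium-proton exchanger named after its value was seen, by 3.39 (adjusted p = 0.0349), and by 2.88 without 1-month-old replicate 2 (adjusted p = 0.0348). SLC9A4 was at 0.535, 0.0726 and 0.172 CPM in 1-month-old replicates 1, 2 and 3, with replicates 2 and 3 below the level of 3 counts. The 24-month-old replicates had 3.96, 1.34 and 2.22 CPM, so its fold change starts near that level.

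The hypoxia genes were listed because CA9 is a target of HIF1A. All 14 were tested, 3 rose from 1 to 12 months and 2 from 1 to 24 months, and none fell. Across all genes 18.2% and 17.5% passed in these comparisons. Library sizes from the epithelial genes turned HIF1A, SLC2A1 and, at 24 months, VEGFA and EGLN3 below 0. In the fit without 1-month-old replicate 2, 5 rose (VEGFA, HIF1A, EGLN3, BNIP3 and PDK1) and 2 fell from 1 to 12 months, the latter being KDM3A (-0.58, adjusted p = 0.0104) and PGK1 (-0.63, adjusted p = 0.0346). At 24 months 3 rose there (VEGFA, SLC2A1 and EGLN3) and LDHA fell (-1.04, adjusted p = 0.0373). Over all genes, 6531 of 14930 passed in that fit at 12 months and 4272 of 15076 at 24 months. VEGFA, the vascular growth factor, was at 42.7, 14.8 and 42.1 CPM in the 1-month-old replicates and 86.8 to 124 CPM in older goats. It rose by 1.78 (SE 0.422, adjusted p = 0.0324) from 1 to 12 months and by 1.61 (SE 0.45, adjusted p = 0.0424) from 1 to 24 months on the log2 scale. The rises were 1.35 (adjusted p = 0.0019) and 1.23 (adjusted p = 0.0161) without 1-month-old replicate 2, and leaving out any other library ended both calls (adjusted p 0.0624 to 0.121 and 0.0716 to 0.133). HIF1A, the oxygen-regulated transcription factor, rose by 1.04 (adjusted p = 0.0445) and EGLN3, a prolyl hydroxylase that marks HIF1A for removal, by 1.95 (adjusted p = 0.0301) from 1 to 12 months. In the same comparison HIF1A was at 0.83 (adjusted p = 0.0106) and EGLN3 at 1.55 (adjusted p = 0.00973) without 1-month-old replicate 2. The call of HIF1A was lost when any other library was left out (adjusted p 0.0816 to 0.167), and that of EGLN3 without 1-month-old replicate 1 or any 12-month-old library (adjusted p 0.0881 to 0.113). At 24 months HIF1A did not pass in either fit (adjusted p = 0.119 and 0.104), and EGLN3 missed the threshold with 6 libraries (adjusted p = 0.0534) and passed without 1-month-old replicate 2 (adjusted p = 0.0471). SLC2A1, a glucose transporter, rose by 1.45 from 1 to 24 months (adjusted p = 0.0354, and 0.0194 without 1-month-old replicate 2). Its call was lost without 1-month-old replicate 1 or 3 or 24-month-old replicate 2 or 3 (adjusted p 0.0918 to 0.151).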

How the data were processed

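RNA of 9 submandibular glands was sequenced by the authors after ribosomal RNA removal with a strand-marking kit. The submitters' processing notes name Bowtie2 2.2.8, TopHat2 2.1.1 and Cufflinks, and the genome build is not given in the sources used here. The deposited table holds expected counts per transcript, which the authors estimated with RSEM and did not normalize. It covers 52739 transcripts, of which 10053 were newly assembled. Here 436 transcripts without a gene name (0.251% to 6.01% of counts) were left out, and the rest were summed to 21228 genes. Of the RefSeq transcript IDs, 99.9% were found in the reference gene table. CA2 and CA13 carry locus names in the table and were matched by product name, as were 9 further genes of the lists.

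Counts were rounded and each pair of ages was tested with edgeR 4.0.16 (R 4.3.3) by filterByExpr, TMM and the quasi-likelihood test on 6 libraries, with Benjamini-Hochberg adjustment over all genes. The SE is the log2 fold change divided by the root of the F statistic. CPM used TMM factors over 9 libraries. Permutation tests used scipy 1.17.1, and functions were tested on simulated data. Depth limits and counting error are given as the level of 3 counts. No label says that library preparation was shared or split between ages, and p-values measure the spread between goats.

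Genes were named by rule: all members, the other family genes, the passing genes of each pathway list (at most 4 by mean CPM) with SLC4A4, SLC26A6 and CFTR, and 3 genes most like each of the 3 members with the largest mean CPM. Cell type lists are given by their summed levels, with AQP5, MUC19, BHLHA15 and TFCP2L1 named after their values were seen. So were pathway genes that passed only without 1-month-old replicate 2. One further gene of the rule is not reported here. The members and lists were chosen with earlier results of these data known. Alternatives were other normalizations, library sizes from 12 epithelial genes, DESeq2 1.42.0, edgeR's exact test, no filter, 1 fit of 9 libraries, a replicate block, unsummed transcripts and leaving out each library.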

Additional observations from a re-analysis of the deposited data

How the results depend on the processing

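With 6 libraries, 2 members passed from 1 to 12 months, 2 from 1 to 24 months and 0 from 12 to 24 months. From 1 to 12 months 4 passed with DESeq2 and 4 with edgeR's exact test (CA3, CA4, CA6 and CA12 with both), 1 with upper-quartile normalization, 1 with library sizes from the epithelial list (CA9, as lower) and 0 with unsummed transcripts. From 1 to 24 months 4 passed with DESeq2, 4 with the exact test, 0 with unsummed transcripts and 3 with epithelial library sizes (CA6 as higher, CA9 and CA13 as lower). One fit of all libraries without 1-month-old replicate 2, added after the data were seen, called 4 members in each comparison with group A. Leaving out 1 library at a time gave 0 to 4 members in each comparison with group A and 0 to 1 from 12 to 24 months. With a replicate block 0 members passed from 1 to 12 months, 1 (CA3) from 1 to 24 months and 0 from 12 to 24 months. Same-numbered libraries of groups A and B did not deviate together (r of -0.13, -0.13 and -0.12), nor did every pair in the other comparisons, so the numbers were not taken as a pairing. Under the block CA9 had a log2 fold change of 0.08 from 12 to 24 months.

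Over all genes 2660 of 14621 passed from 1 to 12 months, against 4649 of 16680 with DESeq2. Of the same 14621 genes, 4124 passed with the exact test, 2487 with upper-quartile normalization, 926 with the block and 9845 with epithelial library sizes. When unsummed, 902 of 30272 transcripts passed. From 1 to 24 months 2574 of 14695 passed, against 4005 of 16633 with DESeq2 and 4324 of 14864 with 9 libraries in 1 fit. Of the same 14695 genes, 3773 passed with the exact test, 2153 with the block and 9570 with epithelial library sizes. When unsummed, 453 of 30205 transcripts passed. With all libraries but 1-month-old replicate 2 in 1 fit, 4164 of 15228 genes passed at 12 months and 5783 at 24 months.

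Epithelial library sizes turned the log2 fold change from 1 to 12 months to -0.98 for CA2, -0.97 for CA8, -1.19 for CA13, -0.41 for CA5B, -1.30 for SLC26A6, -0.29 for ATP6V0A4, -0.59 for HIF1A and -0.44 for SLC2A1. From 1 to 24 months they turned it to -1.68 for CA2, -1.64 for CA8, -0.77 for CA5B, -1.72 for SLC26A6, -0.15 for CFTR, -0.98 for HIF1A, -0.29 for VEGFA, -0.56 for SLC2A1 and -0.12 for EGLN3. From 12 to 24 months CA3 turned to -0.06. On this scale the median of all genes was -1.67 from 1 to 12 months, against -0.02 with TMM. From 1 to 24 months it was -1.95 against -0.01, and from 12 to 24 months -0.25 against 0.04. In the fit of all libraries without 1-month-old replicate 2, CA2 was at -0.40 from 1 to 24 months. Leaving out 1 library at a time gave, from 1 to 12 months, -0.11 to 0.79 for CA13 and -0.68 to 0.21 for CA11. From 1 to 24 months it gave -0.30 to 0.58 for CA2, -1.40 to 0.19 for CA13 and -0.61 to 0.26 for CA11. From 12 to 24 months it gave -0.54 to 0.04 for CA6 and -0.44 to 0.21 for CA9. The cause was not tested. With 3 goats an age, depth limits CA14, which lies below the level of 3 counts, and CA9, whose lowest library is at that level.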

Other observations

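A gene annotated as inhibitor of carbonic anhydrase (LOC102172488), a transferrin-like secreted protein, was named after its values were seen. Among the kids it was at 0.767, 0 and 0.63 CPM in replicates 1, 2 and 3. In the 12-month-old replicates it was at 3.96, 5.33 and 5.28 CPM, and in the 24-month-old replicates at 7.39, 3.77 and 4.92 CPM. The kids lay below all older goats. With edgeR's quasi-likelihood test the log2 fold change was 3.43 (SE 0.995, adjusted p = 0.0549) from 1 to 12 months and 3.62 (SE 1.03, adjusted p = 0.0444) from 1 to 24 months, so it passed at 24 months only in the fit of 6 libraries. Without 1-month-old replicate 2 the values were 2.75 (adjusted p = 0.00354) and 2.99 (adjusted p = 0.00874), and both passed. With library sizes from the epithelial genes they were 1.87 (adjusted p = 0.118) and 1.82 (adjusted p = 0.119), and neither passed. A gene with the symbol ICA, measured beside it, was at 0.0752, 0.181 and 0 CPM in the 1-month-old replicates. ICA was at 0 CPM in all 12-month-old libraries and at 0.954, 1.76 and 0 CPM in the 24-month-old replicates.

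The erythroid list was measured because CA1 and CA2 are abundant in red blood cells. Its 8 genes summed to 10.7, 26.4 and 8.35 CPM in the 1-month-old replicates and to 0.724 to 1.44 CPM in groups B and C. CA2 was lowest in 1-month-old replicate 2, at 1.02 CPM, where the erythroid list was highest.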
